A study of Danio rerio with 6 samples.

Results

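Mitochondrially encoded messages for complexes III, IV and V of the oxidative phosphorylation system were measured in adult zebrafish (Danio rerio) ventricles. They are represented by 6 of the 57775 transcript records in each abundance table. The 6 records were chosen by position and length alone. Each table holds 1 run of consecutive records with the same 13 lengths, in genome order, as the mitochondrial protein-coding genes that RefSeq lists for assembly GRCz12tu, and no other stretch of records matched more than 2 of them. Places 3 to 7 and place 13 of that run have the lengths of COX1 (1551 bases), COX2 (691), ATP8 (165), ATP6 (684), COX3 (786) and CYTB (1141). No transcript ID of the tables occurs in the gene tables used here, so each record is named below for the gene whose length it has.

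The study compared 6-month-old fish heterozygous for a truncating mutation in exon 201 of ttna (ttna+/-, from the line labelled ttnaA) with their wild-type (WT) siblings. The ttna gene encodes titin, the elastic giant protein of the heart muscle sarcomere. Polyadenylated RNA from dissected ventricles was sequenced with paired 50-base reads, in 3 libraries per genotype, each made from a pool of 6 ventricles. A library is therefore a mean over several fish, and differences between single fish are not seen. Sex is not given in the labels.

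Vertebrate mitochondrial DNA encodes a small set of inner-membrane subunits, and nuclear genes supply all other subunits of the same complexes. COX1, COX2 and COX3 form the catalytic core of complex IV (cytochrome c oxidase), which passes electrons from cytochrome c to oxygen. ATP6 and ATP8 are membrane subunits of complex V (ATP synthase), and CYTB is the cytochrome b of complex III, which passes electrons from ubiquinol to cytochrome c. The messages are cut from long transcripts that cover the genome, by removal of the tRNAs that lie between most of the genes. In vertebrates the ATP8 and ATP6 reading frames overlap and are read from 1 shared message. Heart muscle is rich in mitochondria. The lengths of COX2 and CYTB leave a remainder of 1 base after division by 3, whereas those of COX1, COX3, ATP6 and ATP8 are whole multiples of 3. In vertebrate mitochondria such open ends are completed to a stop codon when the message is polyadenylated.

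The libraries held 28688112 to 44412410 estimated counts. The ttna+/- libraries were deeper than the WT libraries (40808904 to 44412410 against 28688112 to 34140752), and their sequenced fragments were longer. The gap between annotated and effective length, which is set by fragment size, was 167 to 170 bases in ttna+/- and 153 to 161 bases in WT. Depth and gap both separated the genotypes without overlap, and each difference gave p = 0.1 in an exact two-sided permutation test, the smallest value that 3 libraries against 3 allow. The 4 records longer than 60000 bases summed to 8536, 2862 and 10166 CPM (counts scaled to a common library total) in ttna+/- 1 to 3, against 8363, 2617 and 1440 CPM in WT 1 to 3. Markers of ventricular muscle and of other heart cell types could not be read without gene names, so the tissue label was not checked.

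The 6 mitochondrial messages were among the most abundant of the ventricle in both genotypes. Together they took 9.87%, 13.2% and 10.8% of the estimated counts in ttna+/- 1 to 3, against 9.47%, 13.4% and 11.9% in WT 1 to 3. The 95% Wilson interval of each share was no wider than 0.0228 percentage points and covers counting error only. The share was lowest in WT 1 and ttna+/- 1 and highest in WT 2 and ttna+/- 2, so the genotypes overlapped fully. The means were 11.3% ± 1.71 in ttna+/- and 11.6% ± 1.97 in WT (SD, n = 3 libraries each; two-sided exact permutation p = 0.90). In bulk tissue, fewer cells of a type and less RNA per cell cannot be told apart in such a share. On the scale of TPM (counts divided by effective length and rescaled to a common total) the share was 17.2% ± 1.88 in ttna+/- and 17.3% ± 2.09 in WT. The summed CPM of the records longer than 60000 bases was higher in ttna+/- 1, ttna+/- 3 and WT 1 than in the other libraries, and those 3 libraries also had the lowest shares of the 6 messages. Its part in the result was not tested.

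The complex IV messages stood at similar levels. COX1, which carries the haem and copper centre where oxygen is reduced, stood at 31687, 37887 and 33603 TPM in ttna+/- 1 to 3. It stood at 28668, 37459 and 31630 TPM in WT 1 to 3. The groups overlapped, with replicate 2 the highest and replicate 1 the lowest in each genotype. COX1 had the highest count of all 57775 records in all 6 libraries, from 1107410 in WT 1 to 2253050 in ttna+/- 2.

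COX2, the subunit that receives electrons from cytochrome c, stood at 25967, 31559 and 28148 TPM in ttna+/- 1 to 3. It stood at 25240, 37166 and 31895 TPM in WT 1 to 3. The highest 2 values were both WT, but WT 1 lay below every ttna+/- library. COX2 was also the most variable of the 6 within WT, with a coefficient of variation of 19.0%, against 9.87% in ttna+/-. COX3, the third mitochondrially encoded core subunit, stood at 28794, 35451 and 31333 TPM in ttna+/- 1 to 3, against 27342, 36389 and 32595 TPM in WT 1 to 3. The 2 genotypes spanned nearly the same range.

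The complex V records differed in TPM, although in vertebrates both reading frames lie on 1 shared message. The direction of that difference depends on the length used, as given below. ATP6, part of the proton channel, stood at 21192, 28462 and 25206 TPM in ttna+/- 1 to 3. It stood at 23928, 25153 and 27496 TPM in WT 1 to 3, inside the ttna+/- range. ATP8, a small subunit of the membrane part, stood at 30534, 39093 and 37188 TPM in ttna+/- 1 to 3, against 31060, 37811 and 37840 TPM in WT 1 to 3. The highest and the lowest of these ATP8 values were both from ttna+/-.

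The complex III message was the lowest of the 6 by TPM in 6 of 6 libraries. CYTB stood at 14943, 18327 and 17476 TPM in ttna+/- 1 to 3. It stood at 13568, 16763 and 16410 TPM in WT 1 to 3. The highest 2 values were from ttna+/-, and the groups overlapped because ttna+/- 1 lay below WT 2 and WT 3.

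**Figure D1:**
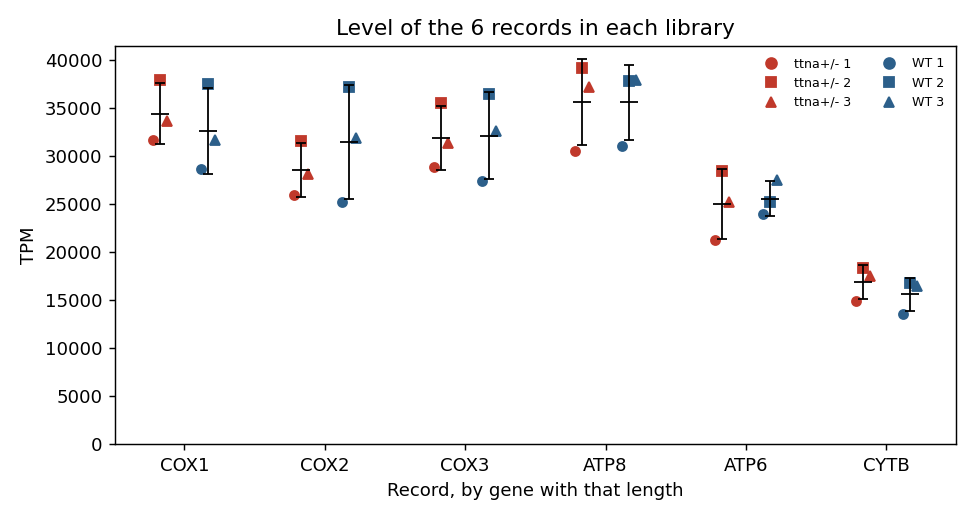
TPM of each record (vertical axis) in the 6 libraries, with ttna+/- in red and WT in blue; symbols mark the replicate number, and black bars give the mean and SD of 3 libraries. For each record the genotypes overlap; CYTB lies between 13568 and 18327 TPM and the other records between 21192 and 39093 TPM.

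Over all 6 libraries the mean level was highest for ATP8, at 35588 ± 3765 TPM (SD, n = 6). COX1 followed at 33489 ± 3607 TPM, COX3 at 31984 ± 3576 TPM, COX2 at 29996 ± 4466 TPM and ATP6 at 25239 ± 2592 TPM. CYTB was last at 16248 ± 1732 TPM. Ratios within a library separate these levels better than the means do, since all 6 messages moved up and down together across libraries. ATP6 exceeded CYTB 1.55-fold on geometric average (range 1.42 to 1.76) and COX2 exceeded ATP6 1.18-fold (range 1.05 to 1.48), each in 6 of 6 libraries. COX3 exceeded COX2 1.07-fold, COX1 exceeded COX3 1.05-fold and ATP8 exceeded COX1 1.06-fold, each in 5 of 6 libraries. An exact sign-flip permutation test over the 6 libraries gave p = 0.031 for both pairs with 6 of 6, the smallest value that 6 libraries allow, and p = 0.0625 to 0.125 for the others. After Benjamini-Hochberg adjustment over the 5 pairs none of the exact tests passed 0.05, with adjusted p = 0.078 for the pairs of ATP6 with CYTB and COX2 with ATP6. The pairs were formed from the order of mean TPM over the same libraries, so these tests give that order no independent support.

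The place of ATP8 in that order rests on its length. The ATP8 record of 165 bases is shorter than many sequenced fragments, and its effective length was only 39.9 to 41.9 bases, 24.2% to 25.4% of its annotated length. For the other 5 records the effective length was 75.2% to 90.1% of the annotated one. By estimated count ATP8 was the lowest of the 6 in every library, at 49307, 70391 and 63724 counts in ttna+/- 1 to 3, against 35707, 54780 and 52772 in WT 1 to 3. It ranked between place 59 and place 91 among all records by count, but between place 1 and place 3 by TPM. With counts divided by the annotated length, ATP8 fell from first to last of the 6, at 8920 ± 1288 CPM per kilobase against 14101 ± 1926 for CYTB and 30369 ± 4424 for COX1 (SD, n = 6). The mean log2 ratio of ATP8 to COX1 changed from 0.09 by TPM to -1.77 by annotated length, in the latter case with ATP8 lower in 6 of 6 libraries. The order of the other 5 was COX1, COX3, COX2, ATP6 and CYTB in 6 of 6 libraries by annotated length, the same as by mean TPM. By TPM in single libraries, COX2 stood above COX3 in WT 2, and both COX3 and COX2 stood above COX1 in WT 3.

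**Figure D2:**
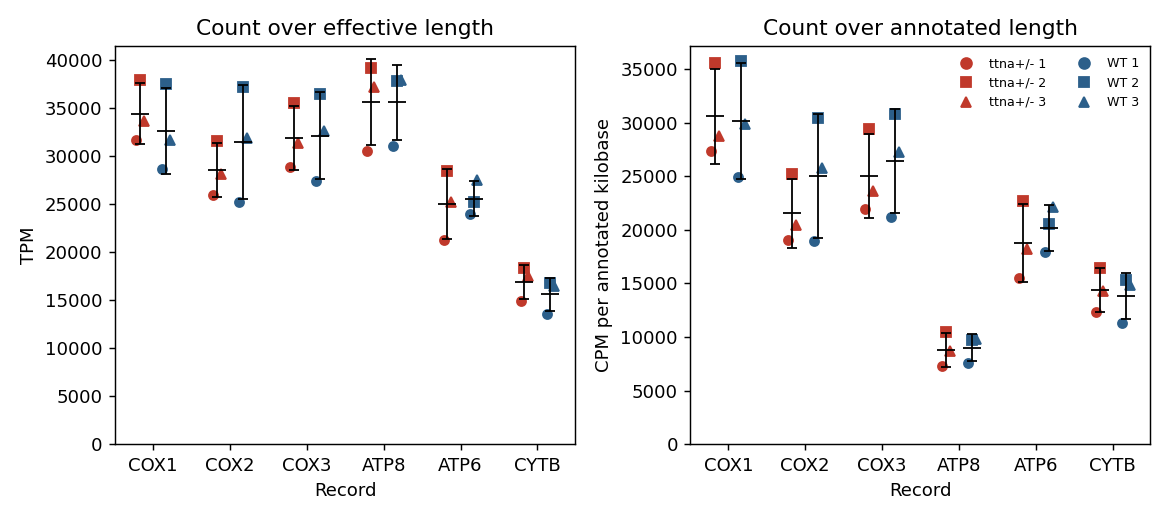
Level of each record per effective length (left, TPM) and per annotated length (right, CPM per annotated kilobase); ttna+/- is red, WT blue, and bars give the mean and SD of 3 libraries. ATP8 is first of the 6 by mean TPM and last by annotated length, whereas the other 5 records keep the order of their means over the 6 libraries.

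The annotated length also decides the direction of the ratio within complex V. By TPM, ATP6 stood at 0.694, 0.728 and 0.678 of ATP8 in ttna+/- 1 to 3, against 0.770, 0.665 and 0.727 in WT 1 to 3. By count over annotated length the same ratio was 2.12, 2.17 and 2.10 in ttna+/- and 2.37, 2.11 and 2.26 in WT. On neither scale did the genotypes separate, since WT 2 lay among or below the ttna+/- values. The ATP8 counts were whole numbers in 6 of 6 libraries (tolerance 1e-06), so the printed values, which carry 1 decimal at that size, show no reads divided between ATP8 and another record. The other 5 records had over 100000 counts in every library, where the tables, printed to 6 significant digits, cannot show fractions.

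All 6 messages exceeded the complex I messages of the same genome. The other 7 records of the run have the lengths of ND1, ND2, ND3, ND4L, ND4, ND5 and ND6, the mitochondrially encoded subunits of complex I (NADH dehydrogenase). CYTB, the lowest of the 6 by TPM, still stood 1.74-fold to 1.92-fold above the highest complex I message of its library, which was ND4L in 5 libraries and ND3 in WT 3. ND4L and ND3 are short records, with effective lengths of 46.9% to 50.1% and 53.4% to 56.9% of the annotated ones, so their places by TPM also rest on length. With counts over annotated length the lowest of the 6 was ATP8, at 1.14-fold to 1.29-fold above ND4, the highest complex I message on that scale. The summed TPM of the 6 was 3.90, 4.19 and 3.80 times that of the 7 in ttna+/- 1 to 3, against 4.32, 4.38 and 3.99 times in WT 1 to 3. The ranges overlapped, with a mean difference of -0.09 in log2 (exact permutation test, two-sided p = 0.20, adjusted p = 0.40 over 8 ratios).

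Across libraries the 6 messages moved together, and not with genotype. The highest library exceeded the lowest by 1.43-fold (ATP8) to 1.61-fold (COX2) in CPM. The SD of log2 CPM over the 6 libraries was 0.20 to 0.28, with a median of 0.21, against a median of 0.30 over the 94 records outside the run with a mean of at least 1000 CPM. Each of the 6 was below its own mean in ttna+/- 1 and WT 1, and each was above it in ttna+/- 2 and WT 2. In ttna+/- 3, CYTB lay slightly above its mean and the other 5 below it, and in WT 3, COX1 lay slightly below and the other 5 above. The root mean square difference between a record's centred log2 CPM and the mean profile of the 6 was 0.03 for COX3, 0.04 for ATP8, 0.06 for CYTB, 0.07 for COX1, 0.09 for ATP6 and 0.10 for COX2. Each of the 6 is part of that mean, which makes its own difference smaller.

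The complex I messages ND1, ND2, ND3, ND4L and ND4 lay as near to the same profile, at differences of 0.03 to 0.11. ND5 and ND6, at 0.55 and 0.76, did not follow it, with their lowest or second lowest values in ttna+/- 2 and WT 2, where the 6 were high. Of the 1024 records outside the run that averaged at least 100 CPM, the nearest were ENSDART00000155746.3, of 2001 bases, at a difference of 0.05 and a mean of 119 CPM, and ENSDART00000105532.6, of 1199 bases, at 0.05 and 165 CPM. These likenesses are descriptions over 6 libraries, in CPM that share each library's total.

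**Figure D3:**
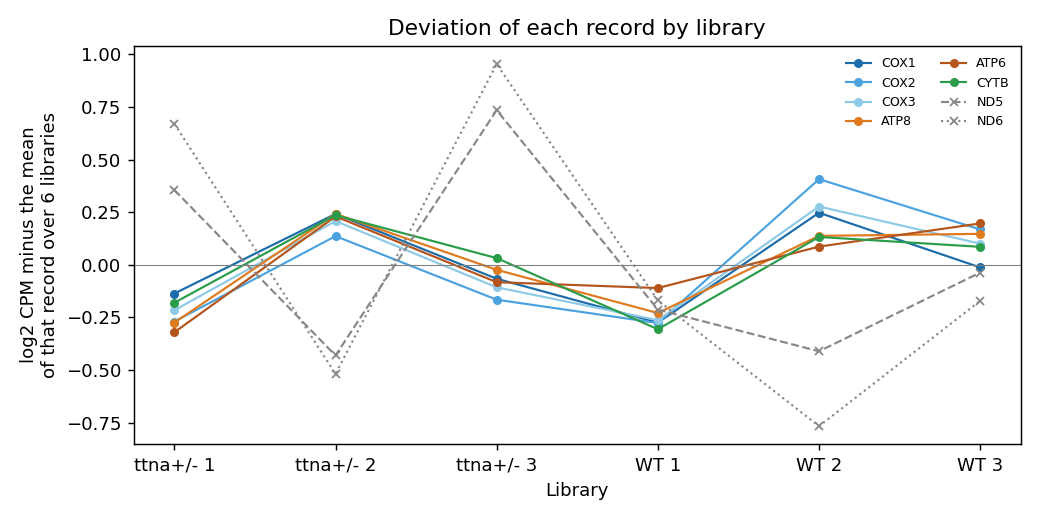
Log2 CPM of each record minus its own mean over the 6 libraries (vertical axis), by library; coloured circles are the 6 records, grey crosses ND5 and ND6, and lines only join the values of 1 record. The 6 records are all below their means in ttna+/- 1 and WT 1 and all above them in ttna+/- 2 and WT 2.

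The comparison of ttna+/- with WT asks whether the messages differ when 1 copy of ttna is truncated. None of the 6 passed the test, and their estimated differences in the fit with genotype alone were small. With edgeR's quasi-likelihood test 0 of the 6 were called when an adjusted p under 0.05 was required, alone or together with a fold over 2, as were 0 of all 29950 transcripts tested (0%). At an unadjusted p under 0.05 it gave 0 of the 6, against 10.6% of all transcripts tested. DESeq2 called 0 of the 6, against 1.82% of the transcripts to which it gave an adjusted p. The genotypes overlapped in CPM and in TPM for 6 of 6 records. Over all transcripts tested, the genotypes did not overlap for 20.2% in CPM and 19.3% in TPM. Since the 6 moved together across libraries, they are not 6 separate observations, and no difference from these shares was tested. The median log2 fold change of the 6 was 0.02, beside 0.01 over all transcripts tested.

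In complex IV, COX1 had a log2 fold change (ttna+/- over WT) of 0.09 ± 0.23 (SE), with a 95% interval from -0.46 to 0.65. COX2 had -0.15 ± 0.26, with an interval from -0.76 to 0.47, and COX3 had -0.01 ± 0.24, with an interval from -0.58 to 0.56. In complex V, ATP8 had 0.05 ± 0.23, with an interval from -0.50 to 0.59, and ATP6 had -0.02 ± 0.22, with an interval from -0.56 to 0.51. In complex III, CYTB had 0.13 ± 0.23, with an interval from -0.41 to 0.68. The edgeR adjusted p-values ran from 0.834 for CYTB to 0.991 for COX3. In fold terms the intervals ran from 0.589-fold at the low end (COX2) to 1.60-fold at the high end (CYTB), so in that fit no interval reached a 2-fold change in either direction. That bound does not hold once each library's length gap, which separates the genotypes, is a term of the fit. All 6 estimates were then negative, at -0.31 for COX1, -0.74 for COX2, -0.48 for COX3, -0.34 for ATP8, -0.28 for ATP6 and -0.33 for CYTB, and none passed (smallest edgeR adjusted p = 0.871). Their 95% intervals all included 0 and all reached past a 2-fold decrease, that of COX2 from -2.18 to 0.69 in log2. Those of COX1 and ATP6 also reached past a 2-fold increase, each up to 2.09-fold. The estimate of ATP8 also turned negative with library totals alone, and those of ATP6 and COX3 turned positive with DESeq2's size factors. With genotype alone in the fit, none of the other 7 records of the run passed either, and ND5 and ND6 had the largest estimates, at 0.59 ± 0.32 and 0.93 ± 0.40 (SE).

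**Figure D4:**
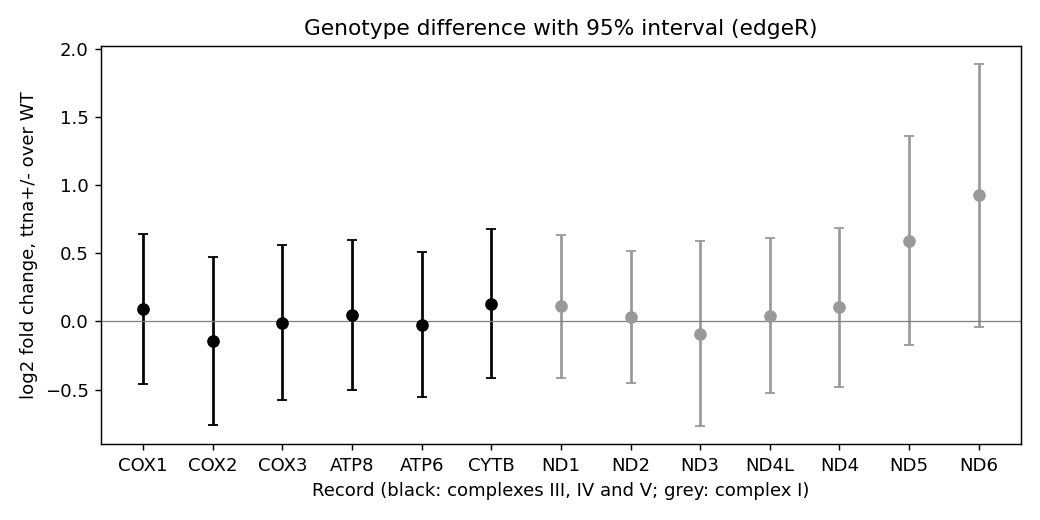
Log2 fold change of ttna+/- over WT from edgeR (vertical axis) with its 95% interval for the 13 records of the run; the 6 records of complexes III, IV and V are black and the 7 of complex I grey. The 6 lie between -0.15 and 0.13, and every interval includes 0.

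Ratios between messages of the same library do not depend on how libraries are scaled. Within complex IV the SD of a log2 ratio was 0.01 to 0.02 in ttna+/- and 0.06 to 0.11 in WT, a difference in spread that was not tested. The ratio of COX2 to COX1 by TPM was 0.820, 0.833 and 0.838 in ttna+/- 1 to 3, against 0.880, 0.992 and 1.01 in WT 1 to 3. The 3 ttna+/- values were all below the WT values, and WT 1 was the nearest to them. The mean log2 ratio was -0.27 ± 0.02 in ttna+/- and -0.06 ± 0.11 in WT (SD, n = 3 libraries each), a difference of -0.21.

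The ratio of COX3 to COX1 was 0.909, 0.936 and 0.932 in ttna+/- 1 to 3, against 0.954, 0.971 and 1.03 in WT 1 to 3. The ratio of COX3 to COX2 was 1.11, 1.12 and 1.11 in ttna+/- and 1.08, 0.979 and 1.02 in WT. Neither overlapped between the genotypes, with log2 differences of -0.09 and 0.12. Each of the 3 linked ratios gave p = 0.1 in the exact two-sided permutation test, the smallest that 3 against 3 allow, and an adjusted p of 0.27 over the 8 ratios tested, so none passed. Of the 15 pairs among the 6 records, 6 had TPM ratios that did not overlap between the genotypes (40.0%). Among pairs of the 94 records outside the run with a mean of at least 1000 CPM, 36.1% did not overlap, so such a separation was about as frequent elsewhere. Fragment size, which also separated the genotypes without overlap, cannot be told apart from genotype here.

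Besides the 3 above, the pairs without overlap were COX2, ATP8 and COX3 against CYTB, each lower relative to CYTB in ttna+/-. CYTB accordingly made up 9.76%, 9.61% and 10.1% of the summed TPM of the 6 in ttna+/- 1 to 3, against 9.06%, 8.79% and 9.23% in WT 1 to 3 (means 9.82% ± 0.255 and 9.02% ± 0.221, SD, n = 3 libraries each; two-sided exact permutation p = 0.10). Complex IV made up 55.1% ± 1.32 of it in ttna+/- and 55.5% ± 2.35 in WT, and complex V 35.1% ± 1.18 and 35.5% ± 2.14. Both complexes overlapped between the genotypes. The exact permutation p of the CYTB share is the smallest that 3 against 3 allow and was not adjusted. That share draws on the same values as the CYTB ratios above.

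The remaining ratios overlapped as well. The ratio of ATP6 to COX3, its neighbour in the genome, was 0.736, 0.803 and 0.804 in ttna+/- 1 to 3, against 0.875, 0.691 and 0.844 in WT 1 to 3. The ratio of CYTB to COX1 was 0.472, 0.484 and 0.520 in ttna+/- and 0.473, 0.447 and 0.519 in WT. The ratio of summed complex V to summed complex IV was 0.598, 0.644 and 0.670 in ttna+/- and 0.677, 0.567 and 0.680 in WT. WT 2 had the lowest value of the 6 libraries in each of these ratios. Their log2 differences between the genotypes were -0.03, 0.04 and -0.0049, with exact permutation p-values of 0.80, 0.70 and 0.90, two-sided, and adjusted p = 0.90 for each.

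**Figure D5:**
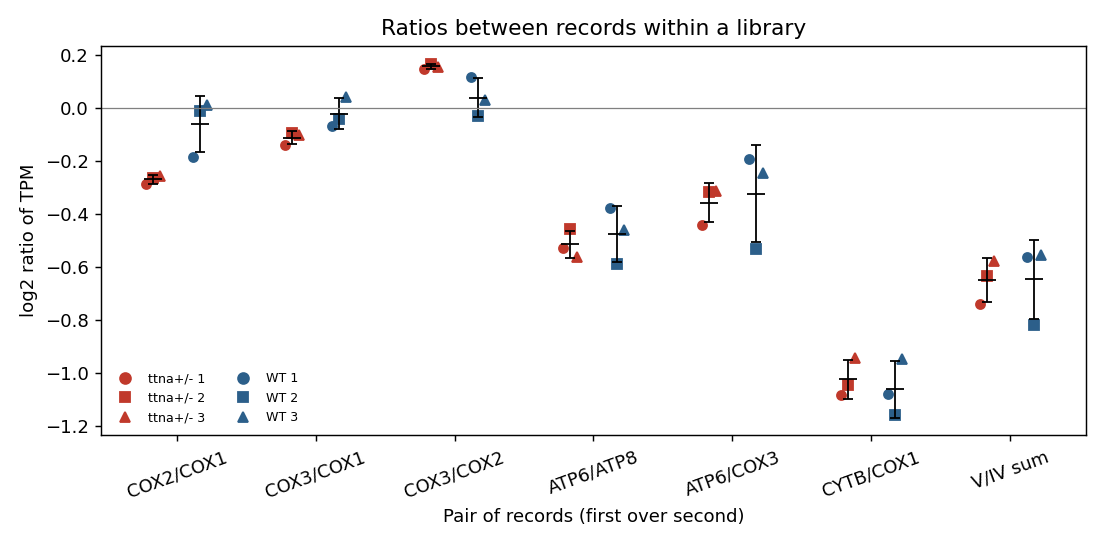
Log2 ratio of TPM between pairs of records within a library (vertical axis); V/IV sum is the summed complex V over the summed complex IV records, ttna+/- is red, WT blue, and bars give the mean and SD of 3 libraries. The ratios among COX1, COX2 and COX3 do not overlap between the genotypes, and the other ratios plotted do. Among pairs of records outside the run with a mean of at least 1000 CPM, 36.1% do not overlap either.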

How the data were processed

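Per the file headers, each library's deposited table gives estimated counts and TPM per transcript beside annotated and effective lengths. Which program and annotation made them is not given in the sources used here. Per the submitters' processing notes, listed names are the builds Zv9 and GRCz11 and the tools Cuffdiff, Cufflinks 2.2.1 and TopHat2 2.1.1, without a role. Deposited estimated counts are not scaled, and large ones carry 6 significant digits. Reads without molecular identifiers are not independent molecules.

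Estimated counts were rounded and all transcripts were tested with edgeR 4.0.16 in R 4.3.3 (quasi-likelihood, TMM factors, filterByExpr defaults, robust, with genotype alone in the model). Benjamini-Hochberg adjustment ran over the 29950 transcripts left by the filter, the 6 records among them. The standard error is the log2 fold change over the square root of F. CPM was computed from library totals without TMM factors. Ratios, shares and levels used exact permutation tests. DESeq2 1.42.0, limma 3.58.1 (voom, and log2(TPM + 1) or log2(TPM + 0.1)) and other settings were alternatives. The edgeR fit and the exact tests were checked on simulated data or known cases. All 6 records are named. The records of like pattern are the 2 outside the run with a mean of at least 100 CPM and the smallest root mean square difference from the mean profile. Members, lists and tests were chosen with earlier results of these data known. Nuclear-encoded partner subunits and cell type markers were not analysed here, since no transcript ID was paired with a gene name.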

Additional observations from a re-analysis of the deposited data

How the results depend on the processing

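All 17 alternatives called 0 of the 6, with or without the 2-fold limit (lowest adjusted p 0.566). Of all transcripts DESeq2 called 598, limma on TPM called 1 or 6 and the others 0, so 0 of 6 says little. The signs of the log2 fold changes did not hold, and the cause was not tested. With each library's length gap in the model all 6 were negative: -0.31 for COX1, -0.34 for ATP8 and -0.33 for CYTB, which changed sign, and -0.74 for COX2, -0.48 for COX3 and -0.28 for ATP6, which grew in size. For ATP8 the value was -0.033 with library totals only and -0.00054 with limma on either TPM scale. For ATP6 it was 0.0051 with DESeq2 or its size factors and 0.0038 with an effective length offset. For COX3 it was 0.017 with DESeq2 or its size factors, 0.0021 with limma-voom, 0.013 with the effective length offset and 0.0020 with the replicate block. Leaving out each library gave ranges of -0.044 to 0.26 for COX1, -0.32 to 0.050 for COX2, -0.10 to 0.22 for ATP8, -0.18 to 0.16 for ATP6, -0.16 to 0.15 for COX3 and -0.0094 to 0.29 for CYTB. COX1 and ATP8 turned negative without ttna+/- 2 or WT 1, and CYTB without WT 1. COX2 turned positive without ttna+/- 1 or WT 2, ATP6 without ttna+/- 1, WT 2 or WT 3, and COX3 without ttna+/- 1, ttna+/- 3, WT 2 or WT 3. The difference in the share of counts ranged from -1.38 to 0.568 percentage points and was positive without ttna+/- 1 or WT 2.

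Length correction changed the order of levels. The log2 ratios of neighbours by count over annotated length, and then by count alone, were -1.77 and -5.00 for ATP8 to COX1, 0.24 and 1.22 for COX1 to COX3, 0.15 and 0.34 for COX3 to COX2, 0.25 and 0.26 for COX2 to ATP6, and 0.47 and -0.27 for ATP6 to CYTB. Each gave an adjusted p = 0.031 in the exact sign-flip test, the smallest that 6 libraries allow, which the TPM ratios did not reach. Counts alone carry no correction for length, so their ratios reflect record length as well as level, and their p-values do not compare levels. Annotated length takes no account of fragment size. Outside ATP8 the effective length was 75.2% (ATP6, ttna+/- 1) to 90.1% (COX1, WT 1) of it, so these ratios also partly reflect record length. The pairs were formed from the order of mean TPM in the same libraries, so no setting gives that order independent support. Leaving out a library kept every sign of the TPM ratios: 0.05 to 0.12, 0.05 to 0.09, 0.08 to 0.12, 0.18 to 0.28 and 0.60 to 0.66 in the same order of pairs.

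The genotype differences in log2 ratios kept their signs with count over annotated length and with count alone. For ratios of single records these settings give identical differences, because annotated length cancels, so they are not separate checks. Leaving out each library gave -0.27 to -0.17 for COX2 to COX1, -0.11 to -0.06 for COX3 to COX1, 0.08 to 0.16 for COX3 to COX2, -0.10 to 0.0091 for ATP6 to ATP8, -0.14 to 0.03 for ATP6 to COX3, -0.012 to 0.095 for CYTB to COX1, -0.091 to 0.040 for complex V to complex IV, and -0.14 to -0.06 for the 6 to the complex I records. These tests cannot pass 0.05 in any setting.

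Same-numbered libraries deviated from their group means with correlations of 0.24, 0.20 and -0.20 across transcripts, so the numbers were not taken to pair the samples. Replicate numbers here follow the sample titles; the names of the WT tables count 1 higher, and matched that way ttna+/- 2 with WT 1 gave -0.38 and ttna+/- 3 with WT 2 gave -0.068. With the replicate block, fitted by the titles alone, edgeR called 0 transcripts. Ratio differences were the same (exact p at least 0.25, the smallest for 3 pairs).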
